A study of Mus musculus with 8 samples.

Results

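Transcripts of the Sm ring and of the U1 small nuclear ribonucleoprotein (snRNP) were followed in R1 mESCs, a mouse embryonic stem cell line, after knockdown (KD) of *Eftud2*. The 10 genes were chosen by name, as the 7 ring genes (*Snrpb*, *Snrpd1*, *Snrpd2*, *Snrpd3*, *Snrpe*, *Snrpf*, *Snrpg*) and the 3 genes of U1-specific proteins (*Snrpa*, *Snrpc*, *Snrnp70*), and were found by Ensembl identifier among the 55385 genes of the count table. All 10 passed the filter on low counts. The 8 poly(A) RNA-seq libraries came from wild-type cells kept in N2B27 medium with 2i and LIF, which were infected with lentivirus for 2 days and selected with puromycin for 3 days. Of these, 3 libraries carried shRNA1, which targets the 3′ UTR of *Eftud2*, 3 carried shRNA2, which targets its coding sequence, and 2 carried nt-shRNA, a hairpin without a target, so that the controls also went through infection and selection. All libraries are of 1 cell line, and the labels call them biological replicates without saying whether each was a separate infection, so that the p-values measure the spread between these libraries.

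Eftud2 is a GTPase of the U5 snRNP. The spliceosomal U1, U2, U4 and U5 snRNAs each carry a ring of the Sm proteins B, D1, D2, D3, E, F and G, which closes around a uridine-rich site of the RNA. The ring is built in the cytoplasm, where the Prmt5 methylosome prepares the Sm proteins and the SMN complex places them on the snRNA, and it is needed for the snRNP to return to the nucleus. U1 recognises the 5′ splice site and adds proteins of its own, U1-70K (*Snrnp70*), U1-A (*Snrpa*) and U1-C (*Snrpc*). Ring genes thus serve most spliceosomal snRNPs, while the U1-specific genes serve U1.

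Each library held between 19569525 and 29871048 counts, the nt-shRNA libraries being the deepest, and the 10 genes took between 0.176% and 0.196% of them. *Eftud2* itself stood at 262 and 256 CPM (counts relative to the library total, normalized by edgeR's TMM method) with nt-shRNA, between 225 and 232 CPM with shRNA1 and between 198 and 235 CPM with shRNA2. Its log2 fold change against nt-shRNA was -0.18 with shRNA1 (adjusted p = 0.0514, edgeR's quasi-likelihood test with Benjamini-Hochberg adjustment, as for all adjusted p-values here) and -0.29 with shRNA2 (adjusted p = 0.00122). By qPCR the paper reported a larger loss of *Eftud2* RNA with each shRNA, and by western blot less EFTUD2 protein. The reason for the smaller difference in these counts was not tested. The 8 markers of naive embryonic stem cells summed to between 6583 and 6974 CPM over the 8 libraries, a sum in which single markers moved in both directions. With shRNA2, 5 of the 8 were higher and 2 lower, with *Klf4* at 1.32 and *Dppa5a* at -0.96 on the log2 scale, and with shRNA1, 3 were higher and 2 lower. Of all genes tested, 27.2% were higher and 28.7% lower with shRNA2, and 13.8% and 17.1% with shRNA1. The 6 markers of 2-cell-like cells summed to at most 11.8 CPM with nt-shRNA, to between 48.8 and 67.1 CPM with shRNA1 and to between 36.8 and 48.5 CPM with shRNA2, and all 5 that could be tested were higher with each shRNA. Fibroblast markers summed to 4.56 and 4.95 CPM with nt-shRNA. With shRNA1 they summed to between 6.52 and 7.34 CPM, and with shRNA2 to between 6.28 and 7.48 CPM. Of the 3 that could be tested, 1 was higher with each shRNA. Primitive endoderm markers summed to 23.2 and 23.7 CPM with nt-shRNA, to between 22.01 and 26.1 CPM with shRNA1 and to between 17.6 and 19.5 CPM with shRNA2. Trophoblast markers summed to 152 and 153 CPM with nt-shRNA, to between 139 and 151 CPM with shRNA1 and to between 132 and 140.1 CPM with shRNA2. No marker of any list was at 0 in all libraries, and the part of these markers in the results below was not tested. In such bulk RNA, fewer cells of a type and less RNA per cell cannot be told apart.

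On GRCm38, *Snrpa*, *Snrpd2* and *Snrnp70* lie on chromosome 7, and *Snrpd3* and *Snrpf* on chromosome 10. RefSeq promoter windows (GRCm38.p6, 250 bases before to 50 bases after a transcription start) were found for 8 of the 10 genes, in 9 windows, but not for *Snrpb* or *Snrpd1*. These windows were searched on both strands for 6 motifs. These were the letters CCGGAAG that ETS factors bind, the E-box CACGTG, the box CCAAT, the TATA box TATAAA, the YY1 letters AAGATGG and the palindromic NRF1 motif. No motif was shared by more than 3 of the 8 genes. CCGGAAG occurred in *Snrpc*, *Snrpe* and *Snrpg* and in 8.86% of all 32851 promoter windows. CCAAT occurred in *Snrpd3*, *Snrpf* and *Snrpg* and in 37.4% of all windows. The 3 U1-specific genes had no searched motif in common. *Snrnp70* held the NRF1 motif (0.971% of all windows), *Snrpa* held CACGTG in each of its 2 windows (7.15% of all windows) and TATAAA in 1 of them (13.6%), and *Snrpc* held CCGGAAG. The YY1 letters were not found in the 9 windows and were present in 6.34% of all windows. A match is a description of the letters and not evidence of a bound factor. The following 28-base stretches from upstream of the start sites show how the U1-specific genes differ from each other, and *Snrpg* and *Snrpf* are shown as examples of the ring, with the motif in capitals and each stretch written 5′ to 3′ on the strand of its gene.
Snrnp70, chr7:45395785-45395812, minus strand, motif 61 bases before the start: acagttttgGCGCATGCGCagtgcccct
Snrpa, chr7:27196328-27196355, minus strand, motif 73 bases before the start: ctttcccatccCACGTGatagaactcgc
Snrpa, chr7:27196287-27196314, minus strand, motif 32 bases before the start: ctcttgaaggtCACGTGatactggcgga
Snrpa, other start site, chr7:27195813-27195840, minus strand, motif 69 bases before the start: cgcctttcgcgCACGTGgactaatggga
Snrpc, chr17:27840038-27840065, plus strand, motif 39 bases before the start: agggcagaggCCGGAAGcggaagtccta
Snrpg, chr6:86371385-86371412, plus strand, motif 145 bases before the start: ggcgacgcaaCCGGAAGcgtggctctgg
Snrpf, chr10:93589696-93589723, minus strand, motif 54 bases before the start: gtctttggtggCCAATcacagaagccga

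With shRNA2, 4 of the 7 ring transcripts rose and 0 fell relative to nt-shRNA, while 2 of the 3 U1-specific transcripts fell and 0 rose. *Snrpb*, *Snrpd1*, *Snrpd3* and *Snrpf* rose by 17.0% to 21.9%, and *Snrpa* and *Snrnp70* fell by 17.4% and 13.6%. Neither of these 2 lower calls was kept without nt-shRNA replicate 1 (adjusted p = 0.0628 and 0.0818), and only that of *Snrpa* was kept with scaling by library size alone. Thus 6 of the 10 genes passed the threshold (adjusted p under 0.05), 4 upward and 2 downward, against 55.9% of the 17445 genes tested, 27.2% upward and 28.7% downward. The share of the 10 genes that passed is close to that background. The median log2 fold change was 0.12 over the 10 genes and 0.00 over all genes tested, with 0.23 over the ring and -0.21 over the U1-specific genes. Scaling by library size alone gave medians of 0.32 over the ring, -0.12 over the U1-specific genes and 0.09 over all genes. With shRNA1, only *Snrpd2* passed the threshold (lower), against 30.9% of all genes. In the direct comparison of shRNA2 with shRNA1, 5 of the 10 genes passed, against 35.6% of all genes. The 2 comparisons share the nt-shRNA libraries.

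**Figure D1:**
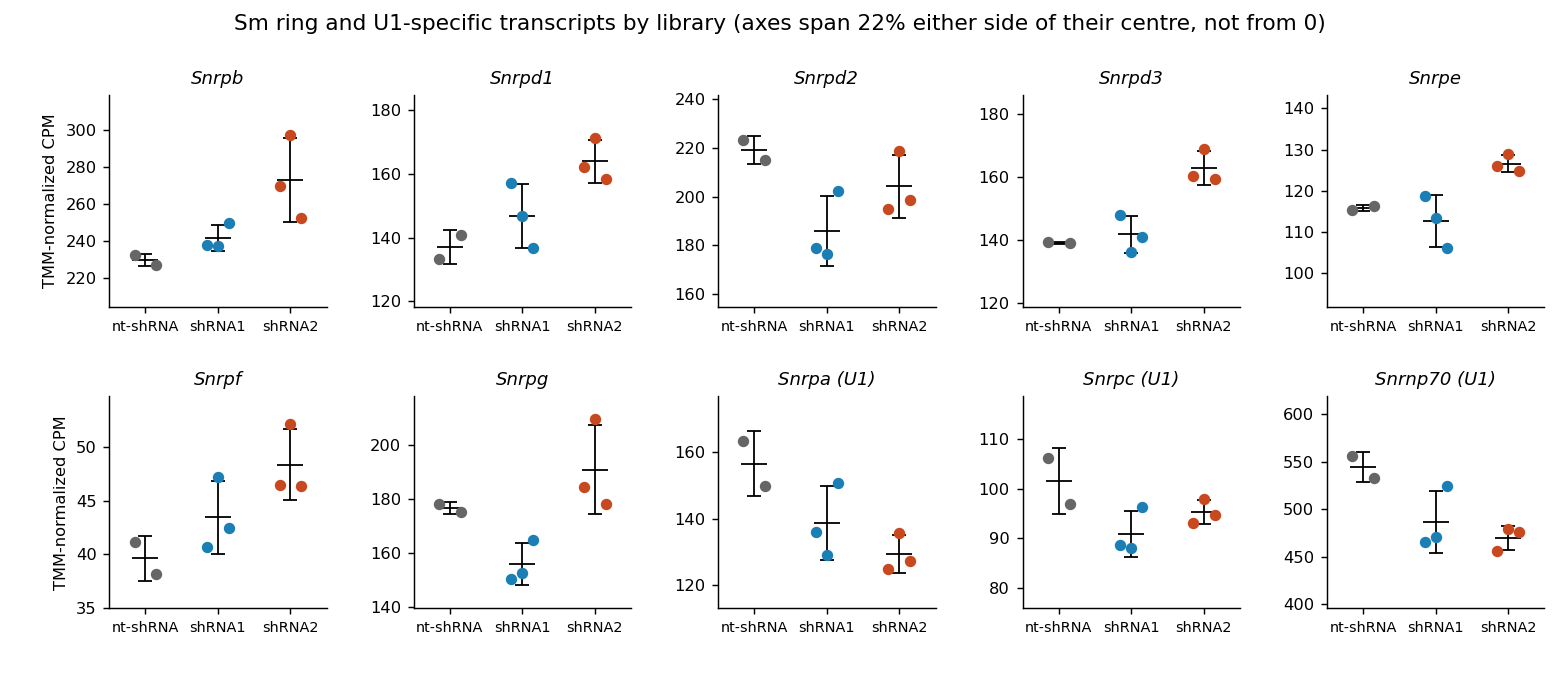
TMM-normalized CPM of each of the 10 transcripts in each library (points), with the group mean (wide bar) and SD (narrow bars), for nt-shRNA (n = 2), shRNA1 (n = 3) and shRNA2 (n = 3). Each axis is drawn around the gene's own range and does not start at 0. All 3 shRNA2 points lie above both nt-shRNA points for *Snrpb*, *Snrpd1*, *Snrpd3*, *Snrpe*, *Snrpf* and *Snrpg*, and below them for *Snrpa* and *Snrnp70*.

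SmB, encoded by *Snrpb* on chromosome 2 (130171414 to 130179403, minus strand), carries a methylated arginine- and glycine-rich tail and pairs with SmD3 before the ring closes. *Snrpb* stood at 232 and 227 CPM with nt-shRNA, at 238, 237 and 249.6 CPM with shRNA1, and at 269.9, 297 and 252 CPM with shRNA2. The 3 groups did not overlap, although the lowest shRNA2 library was only just above the highest shRNA1 library. The log2 fold change was 0.25 with shRNA2 (standard error 0.0671, adjusted p = 0.00374) and 0.07 with shRNA1 (95% interval -0.07 to 0.21, adjusted p = 0.433). The count per gene does not separate the 4 annotated transcripts of *Snrpb*, of which 1 codes for protein, 1 is a target of nonsense-mediated decay and 2 retain an intron. In the direct comparison *Snrpb* was higher with shRNA2 than with shRNA1 by 0.18 (adjusted p = 0.0266), and this call was lost without shRNA2 replicate 2, the highest library (0.11, adjusted p = 0.157), and also without shRNA2 replicate 1 or shRNA1 replicate 1 or 2 (adjusted p between 0.0620 and 0.0849).

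*Snrpd3* (chromosome 10, 75517551 to 75537381, plus strand) encodes the partner of SmB. Its level was 139 and 139 CPM with nt-shRNA, 148, 136 and 141 CPM with shRNA1, and 160.2, 169 and 159 CPM with shRNA2. The nt-shRNA libraries lay inside the range of the shRNA1 libraries, and all shRNA2 libraries lay above the other 5. *Snrpd3* rose with shRNA2 by 0.23 on the log2 scale (standard error 0.0604, adjusted p = 0.00358) and was higher with shRNA2 than with shRNA1 by 0.20 (adjusted p = 0.00758). Both calls held without each library in turn and under every other setting tried. With shRNA1 its log2 fold change was 0.03 (95% interval -0.10 to 0.15). Its annotated exons share 6.74% of their bases with *Gucd1* on the opposite strand, and counting used no strand.

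*Snrpd1* and *Snrpd2* encode SmD1 and SmD2, the pair to which the other ring proteins are added in assembly, and are described together. *Snrpd1* stood at 133 and 141 CPM with nt-shRNA, 157, 147 and 137 CPM with shRNA1, and 162, 171 and 158 CPM with shRNA2. The shRNA1 libraries overlapped the controls, and the shRNA2 libraries lay above all others. *Snrpd1* rose with shRNA2 by 0.26 (standard error 0.0668, adjusted p = 0.00288), a call that was lost without nt-shRNA replicate 1 (0.22, adjusted p = 0.0564). With shRNA1 the log2 fold change was 0.10 (adjusted p = 0.279). The direct difference between the shRNAs, 0.16, was near the threshold (adjusted p = 0.0432) and was lost in 10 of the 15 other settings, which were DESeq2, library size alone, no filter on low counts, a fit of only these groups and the absence of any of 6 of the 8 libraries (0.11 to 0.17, adjusted p between 0.0514 and 0.166).

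*Snrpd2* (chromosome 7, 19149722 to 19153542, plus strand) was the ring gene that lay below nt-shRNA with each shRNA in every setting tried. Its level was 223 and 215 CPM with nt-shRNA, 179, 176 and 202 CPM with shRNA1, and 195, 219 and 199 CPM with shRNA2. All shRNA1 libraries were below both controls, and 1 shRNA2 library lay between the controls. *Snrpd2* fell by 15.1% with shRNA1 (log2 fold change -0.24, standard error 0.0690, adjusted p = 0.0137). This was the only member called with shRNA1, and the call was lost without nt-shRNA replicate 1 (adjusted p = 0.127), without shRNA1 replicate 1 (0.0597) or 2 (0.0753), and with scaling by library size alone (-0.12, adjusted p = 0.165). With shRNA2 its log2 fold change was -0.10 (95% interval -0.25 to 0.04, adjusted p = 0.222), and the difference between the shRNAs did not pass the threshold (0.13, adjusted p = 0.101). That difference passed in 1 of the 15 other settings (adjusted p = 0.0172).

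SmE, SmF and SmG form a trimer that joins the D1 and D2 pair. *Snrpe* (chromosome 1, 133603871 to 133610291, minus strand) stood at 115 and 116 CPM with nt-shRNA, 119, 113 and 106 CPM with shRNA1, and 126, 129 and 125 CPM with shRNA2. The shRNA2 libraries lay close together and above all others, but the log2 fold change of 0.13 against nt-shRNA did not pass the threshold (adjusted p = 0.0839). It passed in 4 of the 15 other settings, among them library size alone, a minimum of 10 counts in every library and without shRNA1 replicate 3 (adjusted p between 0.00599 and 0.0457). Against shRNA1, *Snrpe* was higher with shRNA2 by 0.17 (adjusted p = 0.0235), which was lost in 6 of the 15 other settings, with library size alone, with no filter on low counts, without shRNA1 replicate 2 or 3 and without shRNA2 replicate 1 or 2 (adjusted p between 0.0518 and 0.0865).

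*Snrpf* (chromosome 10, 93583029 to 93589706, minus strand) stood at 41.1 and 38.2 CPM with nt-shRNA, 40.7, 47.2 and 42.4 CPM with shRNA1, and 46.5, 52.1 and 46.4 CPM with shRNA2. The shRNA1 libraries overlapped both other groups. *Snrpf* rose with shRNA2 by 0.29 (standard error 0.0821, adjusted p = 0.00611), and the call was lost without nt-shRNA replicate 2 (0.23, adjusted p = 0.0917). Its log2 fold change with shRNA1 was 0.13 (adjusted p = 0.239). Of its exonic bases, 85.4% are shared with opposite-strand annotation of *4933408J17Rik* and *Ccdc38*, and fragments assigned to more than 1 gene were left out, so that its level is uncertain.

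*Snrpg* (chromosome 6, 86371304 to 86379328, plus strand) differed most between the shRNAs. Its level was 178 and 175 CPM with nt-shRNA, 150.2, 153 and 165 CPM with shRNA1, and 185, 209 and 178 CPM with shRNA2. The shRNA1 libraries were below both controls and the shRNA2 libraries above them, the lowest only by a small margin. Neither difference from nt-shRNA passed the threshold, at -0.18 with shRNA1 (adjusted p = 0.0574) and 0.11 with shRNA2 (adjusted p = 0.184), while the direct difference of 0.29 between the shRNAs did (standard error 0.0627, adjusted p = 0.0015, at most 0.0108 in any other setting). With shRNA1 it was called lower without shRNA1 replicate 3 (-0.22, adjusted p = 0.0223), without shRNA2 replicate 2 or 3, and with no filter on low counts. With shRNA2 it was called higher with library size alone (0.20, adjusted p = 0.0167). *Snrpg* has 4 other annotated genes with a stretch of at least 100 bases that is at least 95% identical, 3 of them pseudogenes, which together held 5923 counts over the 8 libraries against its own 33326. Fragments that fit several places were not counted.

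The 3 U1-specific genes had log2 fold changes below 0 with both shRNAs. *Snrnp70* (chromosome 7, 45376453 to 45395742, minus strand) encodes U1-70K, which binds the first stem-loop of U1 snRNA and helps to load the ring onto it. It stood at 555 and 533 CPM with nt-shRNA, 466, 471 and 525 CPM with shRNA1, and 456, 479 and 476 CPM with shRNA2. Every KD library was below both controls, with shRNA1 replicate 3 nearest to them. *Snrnp70* fell with shRNA2 by 0.21 on the log2 scale (standard error 0.0636, adjusted p = 0.00849), and the call was lost without nt-shRNA replicate 1 (adjusted p = 0.0818), without shRNA2 replicate 1 (0.0507) and with library size alone (-0.12, adjusted p = 0.0930). With shRNA1 the log2 fold change was -0.16 (95% interval -0.29 to -0.03, adjusted p = 0.0635), and -0.22 without shRNA1 replicate 3 (adjusted p = 0.00692). Scaling by library size alone brought it to -0.05. The annotation lists 17 transcripts of *Snrnp70*, of which 5 code for protein, 9 retain an intron and 2 are targets of nonsense-mediated decay, and the count per gene does not separate them. The same limit holds for the other members except *Snrpf*, which has a single annotated transcript.

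*Snrpa* (chromosome 7, 27187005 to 27196271, minus strand) encodes U1-A, which binds the second stem-loop of U1 snRNA. Its level was 163 and 149.7 CPM with nt-shRNA, 136, 129 and 151 CPM with shRNA1, and 125, 136 and 127 CPM with shRNA2. The shRNA2 libraries lay below both controls, and shRNA1 replicate 3 lay between the controls. *Snrpa* fell with shRNA2 by 0.28 (standard error 0.0701, adjusted p = 0.00253), the lowest fold change among the 10 genes in this comparison, and the call was lost without nt-shRNA replicate 1 (-0.21, adjusted p = 0.0628). With shRNA1 it was at -0.17 (adjusted p = 0.0659), and -0.24 without shRNA1 replicate 3 (adjusted p = 0.00901). Over the 15 other settings this value lay between -0.24 and -0.06. Its exons share 11% of their bases with *BC024978* on the opposite strand. By the criterion used for *Snrpg*, 3 other genes hold a near copy of part of *Snrpa*, 2 of them pseudogenes, with 2170 counts together against its own 26984.

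*Snrpc* (chromosome 17, 27838150 to 27851968, plus strand) encodes U1-C, which steadies the pairing of U1 with the 5′ splice site. It stood at 106 and 96.9 CPM with nt-shRNA, 88.6, 88.0 and 96.3 CPM with shRNA1, and 93.2, 98.0 and 94.8 CPM with shRNA2. The controls differed from each other by more than the second of them differed from any shRNA2 library. No difference passed the threshold, at -0.16 with shRNA1 (adjusted p = 0.0738) and -0.09 with shRNA2 (95% interval -0.23 to 0.05, adjusted p = 0.246). Without shRNA1 replicate 3 it was called lower with shRNA1 (-0.20, adjusted p = 0.0230). Over the 15 other settings its log2 fold change lay between -0.22 and -0.04 with shRNA1. With shRNA2 it lay between -0.16 and -0.002. By the same criterion 87 other genes, 3 of them pseudogenes, share a stretch with the main coding transcript of *Snrpc*, so that its level is uncertain as well. Those genes held 203703 counts over their whole length, against 18310 for *Snrpc*. That sum takes in genes such as *Rbm25* and is not a count of copies of *Snrpc*. With replicate number added to the fit as a block, all 3 U1-specific genes were called lower with shRNA1, as were 19.1% of all genes. None of the 3 U1-specific genes differed between the shRNAs in the direct test, with log2 fold changes between -0.10 and 0.07 (adjusted p between 0.228 and 0.515, and 0 called by DESeq2 or at an unadjusted p under 0.05).

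**Figure D2:**
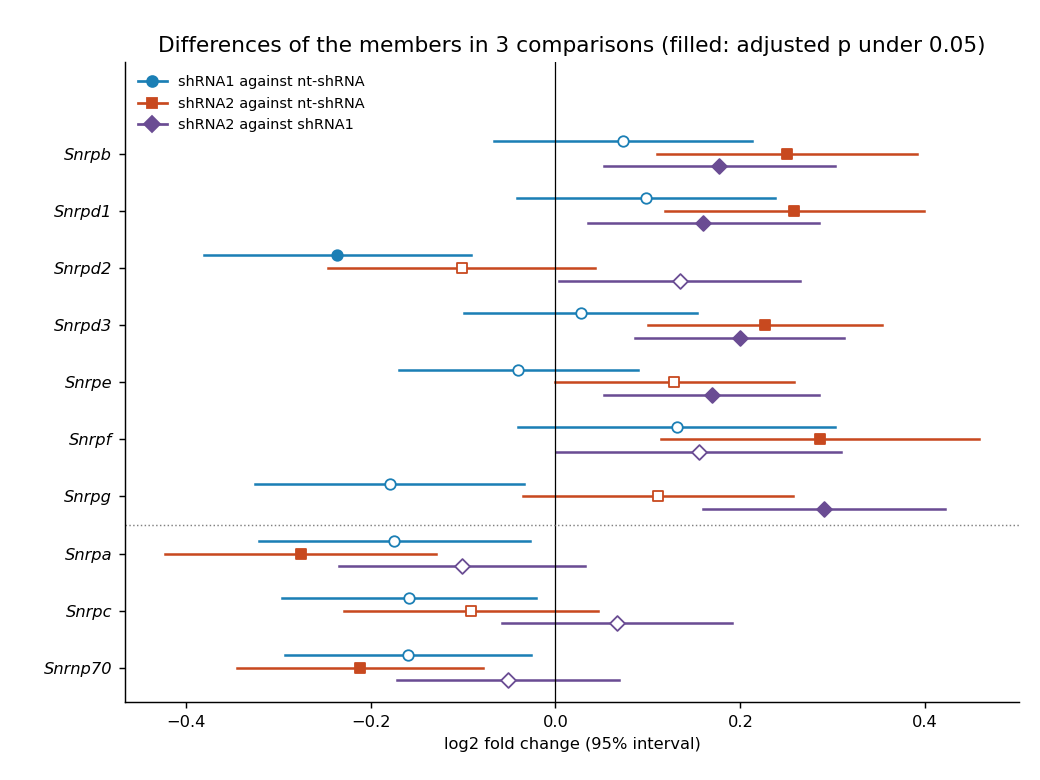
Log2 fold change of each gene (point) with its 95% interval (line) from edgeR's quasi-likelihood fit, for shRNA1 against nt-shRNA (circles), shRNA2 against nt-shRNA (squares) and shRNA2 against shRNA1 (diamonds). Filled points have an adjusted p under 0.05, and the dotted line divides the ring genes (top) from the U1-specific genes. In the direct comparison all 7 ring genes lie to the right of 0, between 0.13 and 0.29, and the U1-specific genes lie between -0.10 and 0.07.

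Counted over the 10 genes, shRNA1 against nt-shRNA gave 0 higher and 1 lower call by edgeR, where 13.8% of all genes were higher and 17.1% lower. At an unadjusted p under 0.05 these counts were 0 and 5 (18.9% and 22.2% of all genes), and DESeq2 gave 0 and 1 (11.5% and 14.7%). The median log2 fold change was -0.10, against -0.01 over all genes tested. Without shRNA1 replicate 3, 5 were called lower (*Snrpd2*, *Snrpg*, *Snrpa*, *Snrpc* and *Snrnp70*), as were 18.7% of all genes. Scaling by library size alone, which moved the median of all genes from -0.01 to 0.11, gave 3 higher (*Snrpb*, *Snrpd1*, *Snrpf*) and 0 lower calls, against 23.5% and 9.82% of all genes. The direct comparison of shRNA2 with shRNA1 gave 5 higher calls among the 10 genes (*Snrpb*, *Snrpd1*, *Snrpd3*, *Snrpe* and *Snrpg*) and 0 lower, against 16.9% of all genes higher and 18.7% lower, and DESeq2 gave 4 and 0 (14.4% and 16.2%). At an unadjusted p under 0.05, 7 were higher and 0 lower, against 21.8% and 23.0% of all genes. In terms of libraries, 6 of the 10 genes had every shRNA2 library above both nt-shRNA libraries, as did 35.4% of all genes, and 2 had every one below, as did 36.0% of all genes. With shRNA1, 1 of the 10 genes had every library above both controls (26.6% of all genes) and 4 had every one below (30.2%). Between the shRNAs, 5 of the 10 genes had every shRNA2 library above every shRNA1 library (23.6% of all genes) and 0 had every one below (24.1%).

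A comparison within each library does not depend on the scaling between libraries. For every 100 counts of the 7 ring genes, the 3 U1-specific genes together had 77.7 and 74.1 counts with nt-shRNA, 66.9, 68.1 and 74.0 counts with shRNA1, and 58.9, 57.2 and 62.4 counts with shRNA2. The 3 groups did not overlap, although shRNA1 replicate 3 nearly reached the lower control. The means were 75.9 ± 2.50 (SD, n = 2), 69.7 ± 3.77 (n = 3) and 59.5 ± 2.68 (n = 3). *Snrnp70* alone had 52.3 and 50.7 counts per 100 ring counts with nt-shRNA, between 45.2 and 50.3 with shRNA1, and between 38.4 and 42.6 with shRNA2. *Snrpa* had 15.4 and 14.2, between 12.8 and 14.5, and between 10.9 and 11.4. This ratio was chosen with the directions of its genes known, so it is a description and was not tested.

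**Figure D3:**
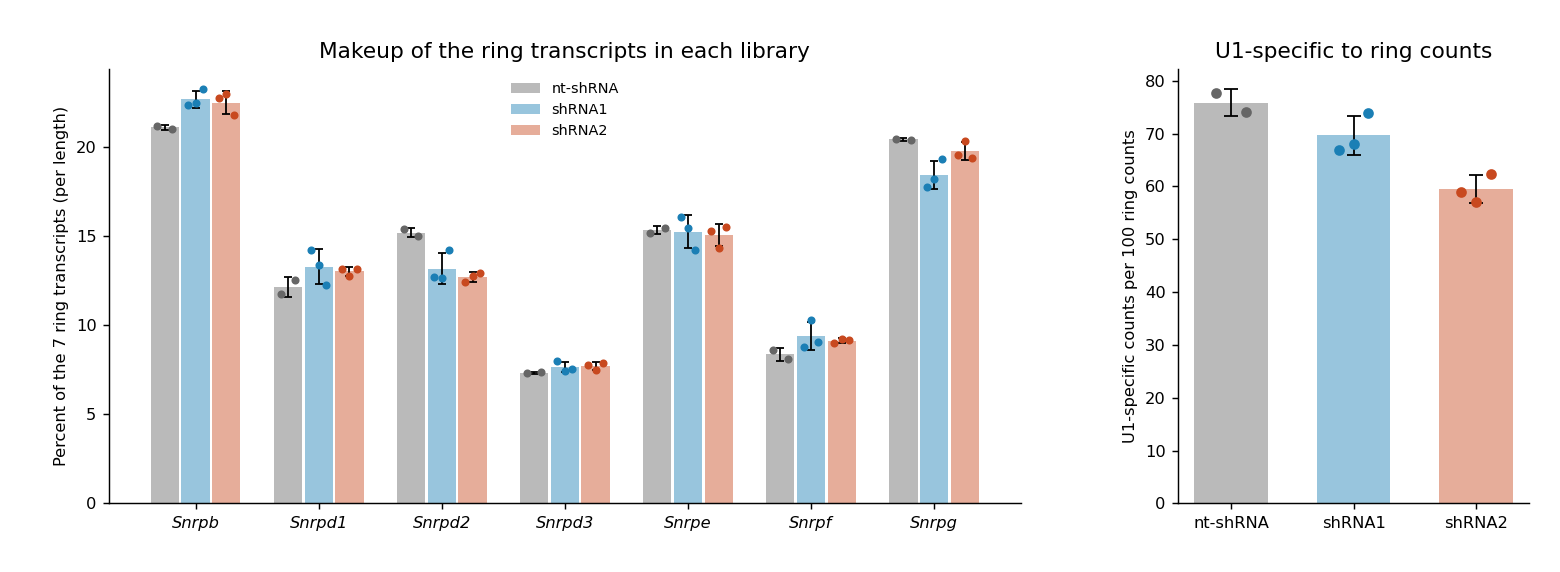
Left, the percentage that each gene contributed to the 7 ring transcripts of a library, with counts divided by the deposited exonic length, as group mean (bar), SD (error bar) and libraries (points), for nt-shRNA (n = 2), shRNA1 (n = 3) and shRNA2 (n = 3). Right, counts of the 3 U1-specific genes per 100 counts of the ring genes in the same libraries. *Snrpd2* took a smaller part of the ring in every KD library than in either control, and the U1-specific ratio stepped down from 75.9 to 69.7 to 59.5.

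The ring holds 1 copy of each protein, but its transcripts were not equally abundant. Per exonic length, *Snrpb* made up 21.1% ± 0.137 and *Snrpg* 20.5% ± 0.0704 of the ring transcripts with nt-shRNA (SD, n = 2), followed by *Snrpe* (15.3% ± 0.226) and *Snrpd2* (15.2% ± 0.274), which did not differ beyond their spread, then *Snrpd1* (12.1% ± 0.568), *Snrpf* (8.37% ± 0.366) and *Snrpd3* (7.35% ± 0.0532). The order depends on the length that is used. With the length of the main coding transcript, *Snrpe* led with 23.0%, ahead of *Snrpb* (19.8%), *Snrpg* (16.7%), *Snrpd1* (16.0%) and *Snrpd2* (15.4%), while *Snrpf* (4.60%) and *Snrpd3* (4.58%) again stood last. The place of *Snrpf* is uncertain on either scale. Fragments in the 85.4% of its exonic bases shared with other genes were left out, while its full length was used. With coding transcript length, *Snrnp70* was at 2.19 times the mean of the 7 ring transcripts with nt-shRNA. *Snrpa* was at 0.802 times and *Snrpc* at 0.722 times that mean. These values also depend on the length. In counts per exonic length, scaled to the same total in each library, the nt-shRNA mean of *Snrnp70* was 207. That was below *Snrpb* (337), *Snrpg* (326), *Snrpe* (245) and *Snrpd2* (243), and above *Snrpd1* (194), *Snrpf* (133) and *Snrpd3* (117). *Snrpa* stood at 153 and *Snrpc* at 45.1 on this scale.

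*Snrpd2* made up a smaller part of the ring with both shRNAs. Its share was 15.4% and 15.0% with nt-shRNA, 12.7%, 12.6% and 14.2% with shRNA1, and 12.4%, 12.8% and 13.0% with shRNA2, per exonic length. Every KD library was below both controls, also with coding transcript length (at most 14.5% against at least 15.2%) and without division by length (at most 19.4% against at least 20.4%). The part of *Snrpb* was larger in every KD library, between 21.8% and 23.3% against at most 21.2% in the controls. Per exonic length the same held for *Snrpf* (at least 8.80%, against at most 8.63%) and *Snrpd3* (at least 7.43%, against at most 7.39%). The part of *Snrpg* was also below both controls in every KD library per exonic length (at most 20.4%, against 20.5% and 20.4%), but not with coding transcript length. Since the 7 shares add up to the whole, the gain of 1 gene is in part the loss of another. Such separation of groups is common here. By CPM, 35.4% of all genes lay above and 36.0% below both controls in every shRNA2 library. With shRNA1 these were 26.6% and 30.2%. How many of all genes separate with both shRNAs at once was not counted, and several margins above are small.

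The machinery that builds the ring was measured in a list of 18 genes of Sm core assembly and snRNA maturation. With shRNA2, 12 of the 18 rose and 1 fell (median log2 fold change 0.22), against 27.2% and 28.7% of all genes. With shRNA1, 3 rose and 1 fell (median 0.06), against 13.8% and 17.1% of all genes. These counts became 8 and 0 with library size alone (median 0.18), against 23.5% and 9.82% of all genes. *Ncbp2*, the cap-binding subunit of the nuclear cap-binding complex that takes snRNAs out of the nucleus, stood at 68.5 and 64.4 CPM with nt-shRNA, 85.1, 79.5 and 71.5 CPM with shRNA1, and 122, 130.5 and 111 CPM with shRNA2. It had the largest rise of the list with shRNA2, with log2 fold changes of 0.87 with shRNA2 (adjusted p = 3.78e-08) and 0.24 with shRNA1 (adjusted p = 0.0265). *Ddx20*, a subunit of the SMN complex, rose by 0.72 with shRNA2 (from 52.3 and 52.1 CPM to 83.5, 97.3 and 77.2 CPM, adjusted p = 1.17e-06). *Tgs1*, which forms the trimethylguanosine cap of snRNAs, rose with shRNA2 by 0.50 (adjusted p = 5.51e-06) and with shRNA1 by 0.29 (adjusted p = 0.00351). *Snupn*, the import adaptor for snRNPs with that cap, was the gene that fell with shRNA2 (-0.36, adjusted p = 0.00103), from 31.3 and 31.9 CPM to 25.1, 23.3 and 25.7 CPM. *Prmt5*, *Wdr77* and *Clns1a*, which make up the methylosome, rose with shRNA2 by 0.29, 0.46 and 0.22, and *Smn1* by 0.23 (adjusted p between 2.63e-05 and 0.00993). *Gemin2*, which holds the Sm proteins in the SMN complex, was not called with shRNA2 (-0.08, adjusted p = 0.313) and fell with shRNA1 (-0.22, adjusted p = 0.0218), a call that was lost with library size alone.

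The 10 LSm proteins resemble Sm proteins, and form rings on U6 snRNA, in mRNA decay and, with *Lsm10* and *Lsm11*, on U7 snRNA, which serves histone mRNA. With shRNA2, 1 rose and 3 fell (median 0.05), against 27.2% and 28.7% of all genes, and library size alone gave 4 higher and 2 lower (median 0.14), against 33.5% and 23.4%. With shRNA1, 0 rose and 2 fell by edgeR (median -0.09), against 13.8% and 17.1% of all genes, with 0 and 3 at an unadjusted p under 0.05 (18.9% and 22.2% of all genes) and 0 and 2 by DESeq2 (11.5% and 14.7%), and library size alone gave 0 and 1 (23.5% and 9.82%), with a median of 0.02. *Lsm4*, a subunit of the U6 and the decay ring, fell with shRNA1 by 0.41 (adjusted p = 0.000461) and with shRNA2 by 0.38 (adjusted p = 0.000299), from 241 and 223 CPM to between 164 and 196 CPM in the 6 KD libraries. *Lsm11* fell with shRNA2 by 0.38 (adjusted p = 0.00192) and with shRNA1 by 0.28 (adjusted p = 0.0291), and the call with shRNA1 was lost with library size alone (-0.16, adjusted p = 0.191). *Lsm3*, of the same rings as *Lsm4*, rose with shRNA2 by 0.27 (adjusted p = 0.00747) and stood at -0.05 with shRNA1 (adjusted p = 0.651).

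Proteins that join U1 to modulate 5′ splice site choice were listed as 9 genes. With shRNA2, 2 rose and 4 fell (median -0.07, and 0.02 with library size alone), where 27.2% of all genes were higher and 28.7% lower. With shRNA1, edgeR and DESeq2 each gave 0 higher and 4 lower (median -0.12), where 13.8% of all genes were higher and 17.1% lower by edgeR and 11.5% and 14.7% by DESeq2. At an unadjusted p under 0.05 there were 0 and 4 (18.9% and 22.2% of all genes). Library size alone gave 2 higher and 1 lower (23.5% and 9.82%), with a median of -0.008. *Luc7l3* stood at 157 and 140.3 CPM with nt-shRNA, 161, 161 and 144 CPM with shRNA1, and 225, 237 and 207 CPM with shRNA2, a rise of 0.59 with shRNA2 (adjusted p = 1.62e-06). With shRNA1 its log2 fold change was 0.06 (adjusted p = 0.54). *Luc7l* was below both controls in every KD library, with 188 and 170.1 CPM against 134, 130.1 and 131 CPM with shRNA1 and 147, 161 and 146 CPM with shRNA2. It fell by 0.45 with shRNA1 (adjusted p = 3.9e-05) and by 0.24 with shRNA2 (adjusted p = 0.00322), and was higher with shRNA2 than with shRNA1 (0.20, adjusted p = 0.0113). *Prpf40b*, related to a yeast U1 protein, fell with shRNA2 by 0.41 (adjusted p = 9.44e-05) and was at -0.10 with shRNA1 (adjusted p = 0.29).

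A list of 6 genes held paralogues of Sm and U1 proteins and other proteins of U2 and of the minor spliceosome. Of these, 2 rose and 1 fell with shRNA2 (27.2% and 28.7% of all genes). With shRNA1, 1 rose and 0 fell by edgeR and by DESeq2 (13.8% and 17.1% of all genes by edgeR, 11.5% and 14.7% by DESeq2). At an unadjusted p under 0.05, 2 were higher and 3 lower with shRNA1 (18.9% and 22.2%). With library size alone, 2 were higher and 0 lower with each shRNA, against 23.5% and 9.82% of all genes with shRNA1 and 33.5% and 23.4% with shRNA2. *Snrpb2* encodes the U2 protein U2B″, a close relative of U1-A. *Snrpb2* stood at 87.2 and 87.4 CPM with nt-shRNA, 119, 107 and 91.7 CPM with shRNA1, and 135, 138 and 126 CPM with shRNA2. It rose by 0.28 with shRNA1 (adjusted p = 0.0157) and 0.61 with shRNA2 (adjusted p = 5.18e-06), and the rise was larger with shRNA2 (0.33, adjusted p = 0.00187), whereas *Snrpa* fell with shRNA2. *Snrpa1*, the other U2-specific subunit of this pair, rose with shRNA2 by 0.15 (adjusted p = 0.0366). *Snrpn*, an imprinted gene whose product SmN can take the place of SmB, fell with shRNA2 by 0.19 (adjusted p = 0.026), from 63.3 and 62.4 CPM to 54.6, 57.1 and 53.9 CPM. This call was lost with library size alone (-0.10, adjusted p = 0.228) and when replicate number was added to the fit as a block. The differences between these genes and the ring or U1-specific genes were not tested.

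**Figure D4:**
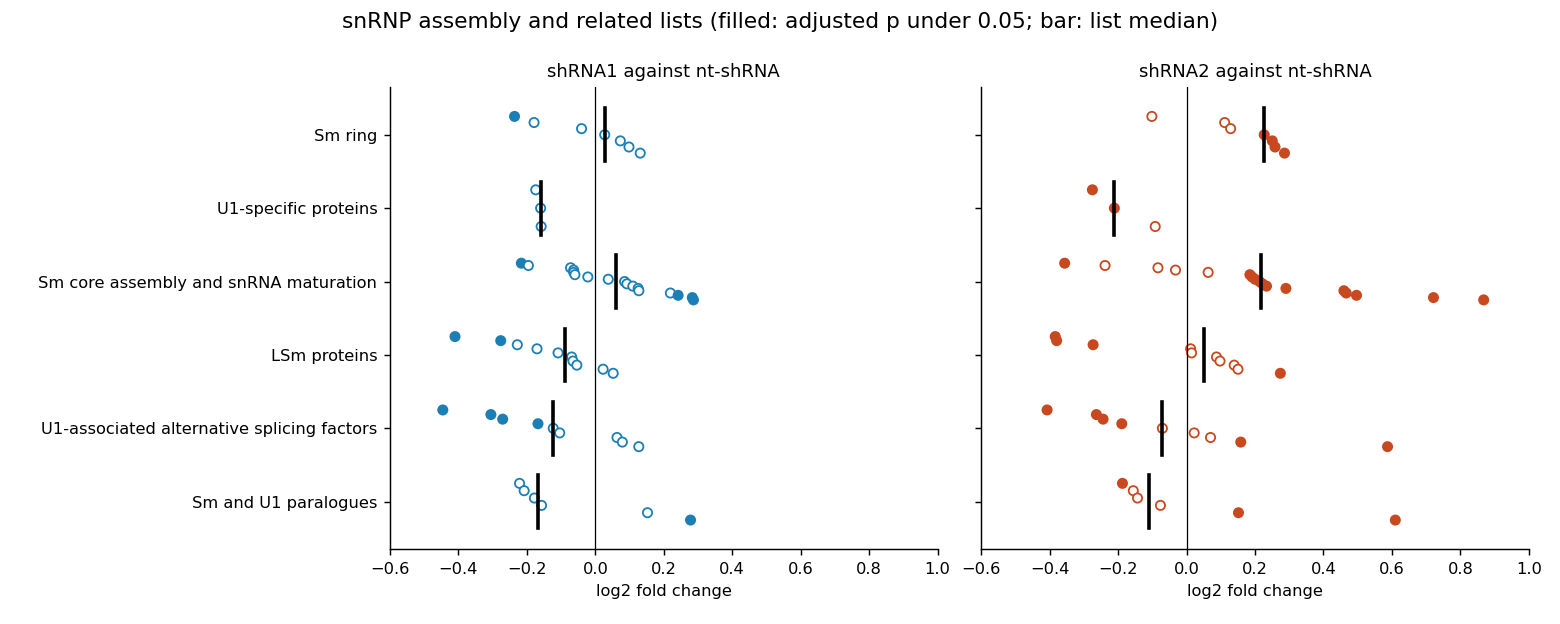
Log2 fold change of each gene (point, filled where the adjusted p is under 0.05) in 6 lists, with the list median (vertical bar), for shRNA1 (left) and shRNA2 (right) against nt-shRNA. The point of *Gemin4*, a very low transcript, is left out of both panels. The list drawn as Sm and U1 paralogues also holds other proteins of U2 and of the minor spliceosome. With shRNA2 the medians are 0.23 for the Sm ring, -0.21 for the U1-specific proteins and 0.22 for Sm core assembly and snRNA maturation.

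The genes whose pattern was most like that of *Snrpb* over the 8 libraries (Pearson correlation of log2 CPM, prior count 2) were *Ptpn1*, *Nectin4* and *Snhg10*, each with an r of 0.991. Those most like *Snrnp70* were *Cox6a1* (0.995), *Gtpbp1* (0.992) and *Prrc2a* (0.987). Among the 17444 other genes tested, 702 had an r over 0.9 with *Snrpb* and 641 with *Snrnp70*, and the 8 points fall into 3 groups, so that such likeness is common here and is given as a description only.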

How the data were processed

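Poly(A) RNA from 8 libraries was sequenced by the authors in pairs of 100 bp reads. They aligned these end-to-end with STAR to mm10 (GRCm38) and counted fragments on the exons of GENCODE M24 genes with featureCounts 1.6.2, and the deposited table holds raw counts per gene with a gene length in bases (the union of exons). The counting command set no strand option, and dropped fragments that aligned more than once or fit more than 1 gene. All per-sample columns were used (0 were not). Symbols were matched by identifier to GENCODE M21 for 55144 of 55385 genes.

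Tests were run on the counts with edgeR 4.0.16 under R 4.3.3 (filterByExpr, minimum count 10, 17445 genes tested, TMM, glmQLFit and glmQLFTest, 1 coefficient per group over all 8 libraries). Two-sided p-values were adjusted by Benjamini-Hochberg over all genes tested, with a threshold of 0.05. Standard errors were taken from the F statistic. The biological coefficient of variation was 0.0638. CPM are TMM-normalized. A count of 3 corresponds to between 0.100 and 0.153 CPM, and depth covers counting error only. Libraries of a group differed by more than sampling noise (chi-square per gene between 3.01 and 11.8). In simulated data of the shRNA2 comparison (17196 genes tested), 96% of 200 changed genes were recovered and 4.48% of calls were false. The 96% holds for these 200 genes as a set. Recovery at fold changes as small as those of the 10 genes was not tested separately. Near copies were sought at 95% identity over at least 100 bases. Promoter sequences are from RefSeq (GRCm38.p6). Protein sequences were not analysed here.

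The 10 genes and all lists were chosen with earlier results of these data known. Beside them, the text names, for each list, the 3 genes lowest in adjusted p with shRNA2 and the gene whose change went furthest against the median of its list, 3 genes most like *Snrpb* and 3 most like *Snrnp70*, and *Eftud2*. *Prmt5*, *Wdr77*, *Clns1a*, *Smn1* and *Gemin2* were named after their values were seen, for their roles, and the markers *Klf4* and *Dppa5a* as the highest and lowest of their list with shRNA2. Alternatives were DESeq2 1.42.0 (Wald test), DESeq2 size factors used in edgeR, scaling by library size alone, filters of none or of 10 counts in each library, fits of just 2 groups, a replicate block, leaving out each library, and other gene lengths. The coding transcript length and the pathway lists under other scalings were added after the data were seen. Figures were drawn with matplotlib 3.10.9.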

Additional observations from a re-analysis of the deposited data

Results flagged for a closer look

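The effect of the 2 hairpins differed for 5 ring genes when shRNA2 was tested against shRNA1 (edgeR's quasi-likelihood test, adjusted p under 0.05), where 16.9% of all genes were higher and 18.7% lower. The log2 difference was 0.29 for *Snrpg*, 0.20 for *Snrpd3*, 0.18 for *Snrpb*, 0.17 for *Snrpe* and 0.16 for *Snrpd1*, and in each of them all 3 shRNA2 libraries were above all 3 shRNA1 libraries, as in 23.6% of all genes. Of 15 other settings, the call was lost in 10 for *Snrpd1*, in 6 for *Snrpe* and in 4 for *Snrpb*, and in none for *Snrpg* and *Snrpd3*. The log2 difference of *Eftud2* between the same libraries was -0.11 (adjusted p = 0.164), and summed markers of 2-cell-like cells were between 36.8 and 48.5 CPM with shRNA2 and between 48.8 and 67.1 CPM with shRNA1. Primitive endoderm markers summed to between 17.6 and 19.5 CPM with shRNA2 and to between 22.01 and 26.1 CPM with shRNA1. Of the 8 naive markers 5 were higher and 1 lower with shRNA2 than with shRNA1, and of 5 trophoblast markers tested 0 were higher and 2 lower. Their part in the result was not tested. No group had more than 3 libraries, so single libraries were not tested as outliers.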

How the results depend on the processing

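With shRNA1, scaling by library size alone gave 3 members higher and 0 lower (0 and 1 with TMM) and turned the median of the 10 genes from -0.10 to 0.015, with 4101 genes higher and 1713 lower overall (70.5% of calls higher, against 44.7%). With shRNA2 it gave 6 members higher in place of 4 (*Snrpe* and *Snrpg* in addition), 1 lower in place of 2 (33.5% and 23.4% of all genes) and a median of 0.21 in place of 0.12 (58.9% of all calls higher, against 48.7%). Between the shRNAs it gave 3 members higher in place of 5 (14.7% of all genes in place of 16.9%). Without a filter on low counts, 3 members were lower with shRNA1 (8.60% of all genes), and 3 higher between the shRNAs (7.48%). With each library left out in turn, members called lower ranged from 0 to 5 with shRNA1 and from 0 to 2 with shRNA2, and members called higher with shRNA2 against shRNA1 from 2 to 5. All genes called with shRNA1 ranged from 1248 to 2649 higher and from 1700 to 3254 lower, the lowest values without nt-shRNA replicate 1. Over the same leave-out fits, at most 29.7% of all genes were lower with shRNA2. Between 11.5% and 17.7% were higher with shRNA2 than with shRNA1. DESeq2, its size factors, the minimum of 10 counts and the fit of only the groups compared left the other counts over the 10 genes within 1.5 times. Where a call was lost, the cause was not tested.

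The labels do not say that same-numbered libraries were paired. Their deviations from the group means correlated by between -0.03 and 0.07. Under a replicate block, 4 members were lower with shRNA1 (*Snrpa*, *Snrpc* and *Snrnp70* in addition to *Snrpd2*), 5 higher and 2 lower with shRNA2 (*Snrpe* in addition), and 5 higher between the shRNAs, with 2694 and 3324 genes called higher and lower with shRNA1, 4898 and 5136 with shRNA2, and 3116 and 3402 between the shRNAs. Between shRNA1 and shRNA2, libraries 2 and 3 of each group correlated best with their own number, and library 1 of shRNA2 did not. The call of *Snrpn* with shRNA2 was lost under the block (-0.16, adjusted p = 0.0516). With 2 control libraries, leaving out either rests the control on the other, which is assumed to vary like the rest.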
